A study of Mus musculus with 6 samples.

Results

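Secretions of the uterine epithelium carry proteins that bind iron, inhibit proteases, feed the complement cascade and move antibodies into the lumen. The genes described here are 8 such genes of the mouse, *Ltf*, *Lcn2*, *C3*, *Slpi*, *Pigr*, *Cfb*, *Wfdc2* and *Defb1*. They were taken by name as estrogen-induced antimicrobial and complement secretions, and the rule that names them uses no measured value. The choice was nevertheless made with earlier results of these data known. All 8 were among the 20145 genes that could be named on the array, and 7 of the 8 had a probe that was bright enough to be tested among 14790 genes in all. No array here came from an estrogen-treated mouse, so the words estrogen-induced describe the choice of the genes and were not tested.

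Whole uteri were collected on gestation day (GD) 3.5 of natural pregnancy, after the embryos had been flushed out, from females that had been mated at 8 to 10 weeks of age. The comparison was between 3 samples from *Sox17* f/f mice and 3 samples from *Sox17* ed/ed mice. *Sox17* f/f mice, labelled as wild type, carry floxed *Sox17* alleles and no recombinase. *Sox17* ed/ed mice carry the same floxed alleles and 1 *Ltf* iCre allele. In *Sox17* ed/ed mice the iCre recombinase is expressed from the *Ltf* gene in the uterine epithelium from puberty onwards, so deletion is limited to epithelium, whereas stroma, muscle and blood vessels stay in the tissue that was measured. *Ltf* is therefore both a member gene and the locus that was modified in 1 of the 2 groups. Total RNA of each sample was hybridized to 1 Agilent G3 Mouse GE array read in 1 colour. Every value below is a log2 normalized signal, on which a difference of 1 is a doubling, unless a fold change is named.

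Lactotransferrin and lipocalin 2 starve microbes of iron, the first by binding iron itself and the second by capturing the siderophores with which bacteria collect it. Complement C3 is the protein on which the complement pathways meet, and factor B is the protease component that amplifies C3 cleavage in the alternative pathway. SLPI and WFDC2 belong to the whey acidic protein (WAP) family of small secreted proteins, the polymeric immunoglobulin receptor carries dimeric IgA across epithelium, and beta-defensin 1 is a cationic peptide made by epithelia. In the rodent uterus estrogen is known to raise several of these secretions, with *Ltf* and *C3* as classical examples, and progesterone is known to oppose much of that response during the days before implantation.

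The quality of the arrays bears on these values as follows. Between 33686 and 38941 of 59305 spots other than controls were well above background on an array, a share of 60.7% to 65.7% for controls and of 56.8% to 59.4% for *Sox17* ed/ed uteri. No array had a saturated spot. Arrays of the same group correlated at 0.990 to 0.995 over the genes tested, and the median SD within a group was 0.11. All 6 arrays shared 1 slide and 1 scan and the genotypes were not mixed within a slide line, which means that slide position and genotype cannot be told apart. *Sox17*, the targeted gene, lay at 12.07 to 12.22 in *Sox17* f/f and at 9.59 to 9.81 in *Sox17* ed/ed uteri. Since the tissue is whole uterus, fewer cells of a type and less RNA per cell cannot be told apart for any gene.

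Genes were called when limma's moderated test gave an unadjusted p under 0.01 together with a fold change of at least 1.4, the thresholds of the study's methods. Of the 14790 genes, 12.5% were called, 6.02% as higher after *Sox17* deletion and 6.48% as lower. Of the 7 members tested, 5 were called higher (*Ltf*, *Lcn2*, *Slpi*, *Cfb* and *Wfdc2*) and 0 lower, while *C3* and *Pigr* did not pass. At an adjusted p under 0.05, which 19.0% of all genes reached, the same 5 members passed. The groups did not overlap for those 5 members either, as was the case for 40.5% of all genes. The exact two-sided permutation test over 3 and 3 arrays has a smallest p of 0.1, which all 5 reached. Their changes ran from 1.47 to 5.63, a wide spread of sizes, while the median log2 fold change of all genes was -0.0019.

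**Figure D1:**
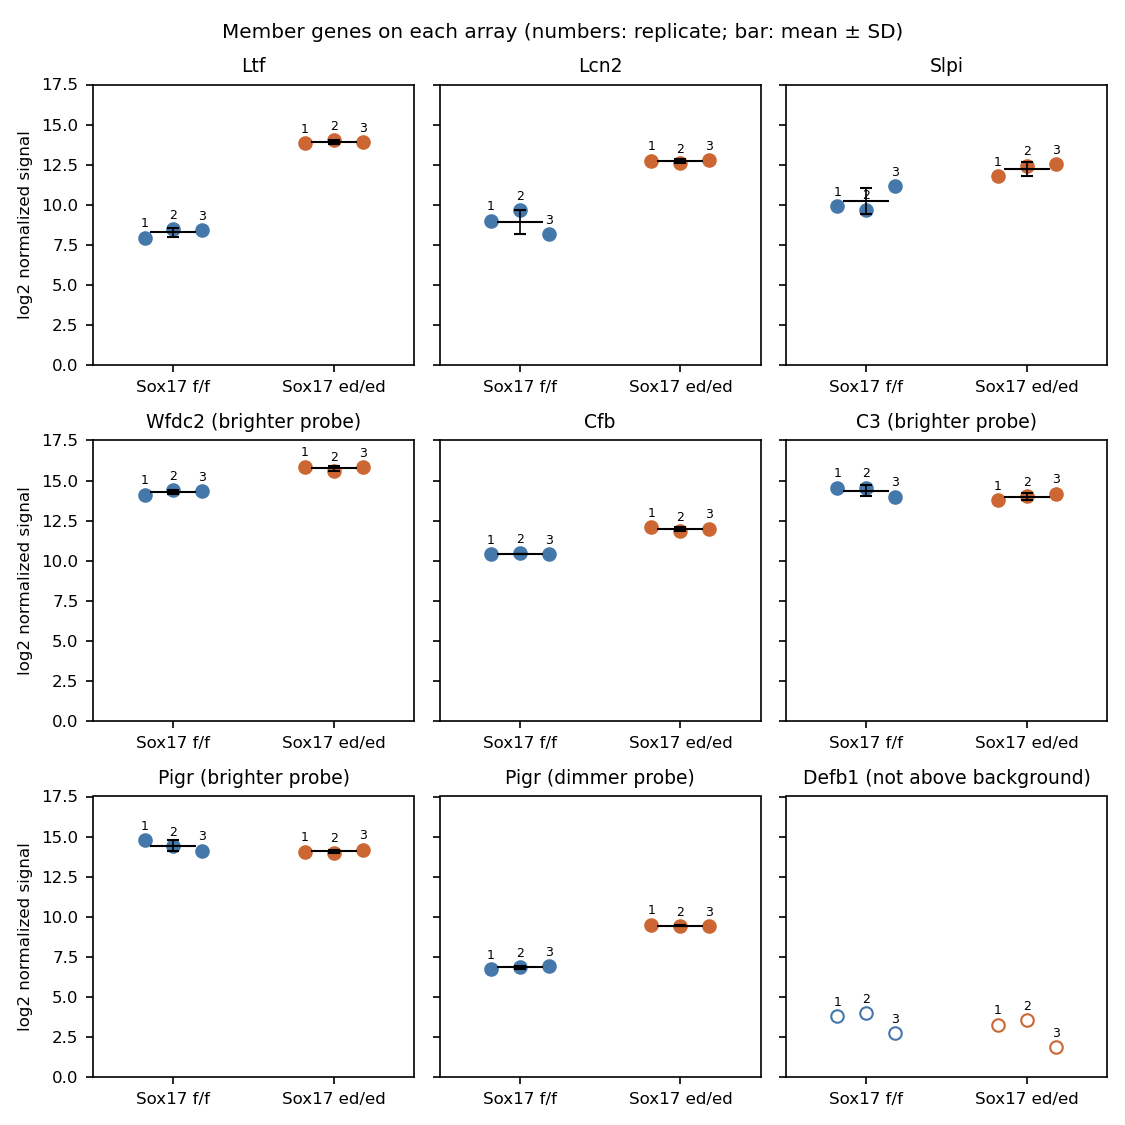
Normalized log2 signal of each member gene on each of the 6 arrays, with *Sox17* f/f in blue and *Sox17* ed/ed in orange. Numbers give the replicate, horizontal bars the group mean and vertical bars the SD of 3 arrays, and open circles mark a probe that was well above background on no array. The groups lie apart for *Ltf*, *Lcn2*, *Slpi*, *Wfdc2*, *Cfb* and the dimmer probe of *Pigr*, and they overlap for *C3* and the brighter probe of *Pigr*.

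Promoter sequences from RefSeq (GRCm38.p6) were at hand for 6 of the 8 genes, with the exception of *Cfb* and *Defb1*, and the 250 bases before the annotated start were searched on both strands. Those of the 2 members with the largest changes (*Ltf* and *Lcn2*), of one member with a wide spread between replicates (*Slpi*) and of the member that is a classical estrogen target yet was not called (*C3*) are shown so that they can be set beside the values. Capitals mark GGTCA or its reverse complement TGACC, one arm of an estrogen response element, and ACAAT, a core bound by SOX proteins, on either strand. The *Ltf* stretch lies at chr9:111019042-111019291 on the plus strand, that of *Lcn2* at chr2:32387740-32387989, that of *Slpi* at chr2:164356508-164356757 and that of *C3* at chr17:57228137-57228386, the last 3 on the minus strand. Each is written 5′ to 3′ in the direction of the gene, from the reference genome, and does not show the modified *Ltf* allele.
Ltf: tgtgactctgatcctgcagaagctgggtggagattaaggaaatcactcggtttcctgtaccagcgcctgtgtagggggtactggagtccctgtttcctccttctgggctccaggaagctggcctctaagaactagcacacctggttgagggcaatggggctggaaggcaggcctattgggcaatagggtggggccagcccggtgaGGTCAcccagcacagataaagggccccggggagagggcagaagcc
Lcn2: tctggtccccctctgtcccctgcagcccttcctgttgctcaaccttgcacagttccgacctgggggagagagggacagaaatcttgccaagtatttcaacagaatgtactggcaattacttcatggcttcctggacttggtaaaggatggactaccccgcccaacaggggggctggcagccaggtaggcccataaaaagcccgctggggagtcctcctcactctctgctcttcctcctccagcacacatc
Slpi: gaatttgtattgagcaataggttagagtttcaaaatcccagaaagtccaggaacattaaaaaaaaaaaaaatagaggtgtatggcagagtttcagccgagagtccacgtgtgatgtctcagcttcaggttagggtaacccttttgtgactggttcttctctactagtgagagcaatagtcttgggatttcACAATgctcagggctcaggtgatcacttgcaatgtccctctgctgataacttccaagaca
C3: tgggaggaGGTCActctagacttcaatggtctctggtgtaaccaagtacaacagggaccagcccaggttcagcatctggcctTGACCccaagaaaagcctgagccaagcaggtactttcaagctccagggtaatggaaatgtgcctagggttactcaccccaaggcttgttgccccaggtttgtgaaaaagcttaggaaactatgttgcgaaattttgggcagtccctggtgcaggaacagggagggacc

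*Ltf* had 1 such arm, 45 to 41 bases before its start, and *C3* had 1 on each strand, 242 to 238 and 168 to 164 bases before its start. *Pigr*, at chr1:130826434-130826683 on the plus strand, had an arm 12 to 8 bases and an ACAAT 159 to 155 bases before its start. *Slpi* had ACAAT 60 to 56 bases and *Wfdc2* had its reverse complement 134 to 130 bases before the start, whereas *Lcn2* had neither motif. In total 3 of 6 members held GGTCA, which 35.2% of 32851 promoters of the same length held, and 3 of 6 held ACAAT, which 27.7% held. The complete element, GGTCA and TGACC separated by any 3 bases and so made of both arms, was in 0 of the 6 windows and in 0.064% of all. An NF-kB site and the AP-1 site TGANTCA were in 0 of 6 as well, against 3.90% and 6.75% of all promoters. These matches describe letters in a short window and nothing about binding.

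The iron-binding members changed most. *Ltf* lay at 7.96, 8.48 and 8.42 on the *Sox17* f/f arrays and at 13.84, 14.03 and 13.89 on the *Sox17* ed/ed arrays. All 3 *Sox17* ed/ed arrays were therefore far above all 3 control arrays, with 5.36 between the nearest arrays of the groups. *Ltf* rose by 5.63 on the log2 scale (SE 0.15, adjusted p = 1.08e-05 by limma with Benjamini-Hochberg adjustment), a 49.6-fold difference. This transcript was read by a single probe, and where that probe lies relative to the iCre insertion is not given in the sources used here, so the level cannot be split between the modified and the unmodified allele.

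The genes on either side of *Ltf* did not share this size of change. *Ccrl2*, the chemokine receptor-like gene that follows *Ltf* in the gene table, differed by -0.02 (SE 0.13, adjusted p = 0.94). *Lrrc2*, the nearest gene before it with a tested probe, differed by -0.08 (SE 0.08, adjusted p = 0.51). Further out, *Tdgf1*, *Als2cl* and *Lrrfip2* were not called.

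*Lcn2* lay at 9.03, 9.66 and 8.17 in *Sox17* f/f and at 12.76, 12.58 and 12.80 in *Sox17* ed/ed uteri. The controls spanned 2.81-fold among themselves and the *Sox17* ed/ed arrays 1.16-fold, and the groups stood 2.92 apart at their nearest arrays. *Lcn2* rose by 3.76 (SE 0.35, adjusted p = 0.0010), or 13.6-fold. Leaving out single arrays moved this between 3.37, without *Sox17* f/f replicate 3, and 4.12, without *Sox17* f/f replicate 2.

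*Ltf* and *Lcn2* were set within a list of 30 transferrin, lipocalin and iron-handling genes, of which 19 were tested, 5 rose, 3 fell and 11 did not pass (median log2 fold change 0.05). *Meltf*, which encodes the membrane-bound melanotransferrin, rose from 5.72, 6.31 and 4.16 to 12.01, 11.92 and 11.81, a change of 6.52 (SE 0.52, adjusted p = 0.00050). The plasma transferrin gene *Trf* differed by -0.02 (SE 0.07, adjusted p = 0.85). *Ptgds*, the lipocalin-type prostaglandin D synthase, rose by 1.72 (SE 0.19, adjusted p = 0.0021), and the lipocalin *Rbp4*, a retinol carrier, fell by 0.84 (SE 0.11, adjusted p = 0.0035). Among the genes that move iron, *Slc40a1*, the iron exporter ferroportin, rose by 1.43 (SE 0.11, adjusted p = 0.00050) and the transferrin receptor gene *Tfrc* fell by 0.61 (SE 0.16, adjusted p = 0.045). The *Tfrc* call was lost under several alternatives, among them the mean of its probes (-0.44), normexp background correction (-0.47), the replicate number as a block, and every fit that left out 1 array except that without *Sox17* f/f replicate 3.

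Receptors that take up these proteins followed no common course. *Lrp2*, the megalin gene, whose product takes up lipocalins and other ligands from the lumen, lay at 12.74, 12.98 and 13.25 in *Sox17* f/f and at 11.55, 10.83 and 11.57 in *Sox17* ed/ed uteri, so that the groups did not overlap. It fell by 1.68 (SE 0.23, adjusted p = 0.0049), or 3.20-fold. *Lrp1*, a receptor that clears lactotransferrin, differed by 0.05 (SE 0.06, adjusted p = 0.61). *Slc22a17*, described as a receptor for lipocalin 2, differed by 0.20 (SE 0.07, adjusted p = 0.099).

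Both WAP family members rose. *Slpi*, an inhibitor of neutrophil elastase and other serine proteases, lay at 9.92, 9.69 and 11.16 in *Sox17* f/f and at 11.77, 12.43 and 12.53 in *Sox17* ed/ed uteri. The third control was well above the other two, and only 0.61 separated it from the lowest *Sox17* ed/ed array. *Slpi* rose by 1.99 (SE 0.42, adjusted p = 0.022), or 3.96-fold. This call was lost when *Sox17* f/f replicate 1, *Sox17* ed/ed replicate 2 or *Sox17* ed/ed replicate 3 was left out (1.82, 1.89 and 1.85, adjusted p from 0.072 to 0.076), and the change was 2.44 without *Sox17* f/f replicate 3.

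*Wfdc2*, which encodes the epithelial secretory protein HE4, was read by a pair of probes. The brighter one lay at 14.14, 14.39 and 14.33 in *Sox17* f/f and at 15.87, 15.58 and 15.83 in *Sox17* ed/ed uteri. The groups stood 1.19 apart, with SDs within them of 0.13 and 0.16. *Wfdc2* rose by 1.47 (SE 0.11, adjusted p = 0.00040), or 2.78-fold, and by 1.60 (SE 0.10, adjusted p = 0.00021 over all probes) on the other probe.

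Of 22 WAP genes 15 were tested, and 7 rose, 2 fell and 6 did not pass (median log2 fold change 1.13, and 0.19 over the 13 genes without the members). This median depended on the filter on low signal, which *Wfdc8* and *Wfdc16* passed through their *Sox17* ed/ed arrays alone. When all 6 arrays had to be well above background, 12 were tested, 5 rose and 2 fell (median 0.11). With no filter 22 were tested, 6 rose and 4 fell (median -0.01). On chromosome 2, which holds *Slpi* and *Wfdc2*, lie 17 of these genes, and 12 of them were tested, with 7 higher, 1 lower and 4 not called. *Wfdc8* and *Wfdc16* are among these 7. In the order of the gene table *Slpi* is the fifth and *Wfdc2* the sixth of these 17, although *Wfdc2* comes 11 genes after *Slpi* when all genes are counted. *Wfdc6a*, number 7 in this order, rose by 1.89 (SE 0.14, adjusted p = 0.00037), and *Wfdc10*, number 13, rose by 1.13 (SE 0.17, adjusted p = 0.0063). Both called and uncalled genes lie between them, and among the latter *Wfdc6b* differed by -0.46 (SE 0.29, adjusted p = 0.32). *Eppin*, which lies directly after *Wfdc6a*, differed by 0.19 (SE 0.17, adjusted p = 0.49).

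A pair of WAP genes was well above background in *Sox17* ed/ed uteri alone. *Wfdc16* was near background on all *Sox17* f/f arrays, without passing as well above it on any, and lay at 7.34, 7.33 and 7.10 in *Sox17* ed/ed uteri, at least 12.4-fold higher (adjusted p = 1.55e-05). *Wfdc8* lay at 4.96, 5.50 and 5.79 in *Sox17* ed/ed uteri and was at least 3.47-fold higher (adjusted p = 0.00039), but with no filter on low signal another probe stood for it, which differed by 0.54 and was not called. These bounds set the mean of the *Sox17* ed/ed arrays against the lowest normalized signal counted as well above background on each *Sox17* f/f array. At the end of the chromosome 2 genes, *Wfdc3* went the other way, from 9.35, 8.87 and 9.01 to 6.10, 6.38 and 6.81, and fell by 2.64 (SE 0.21, adjusted p = 0.00050). *Wfdc17*, which is not on chromosome 2, fell by 1.01 (SE 0.10, adjusted p = 0.0011).

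**Figure D2:**
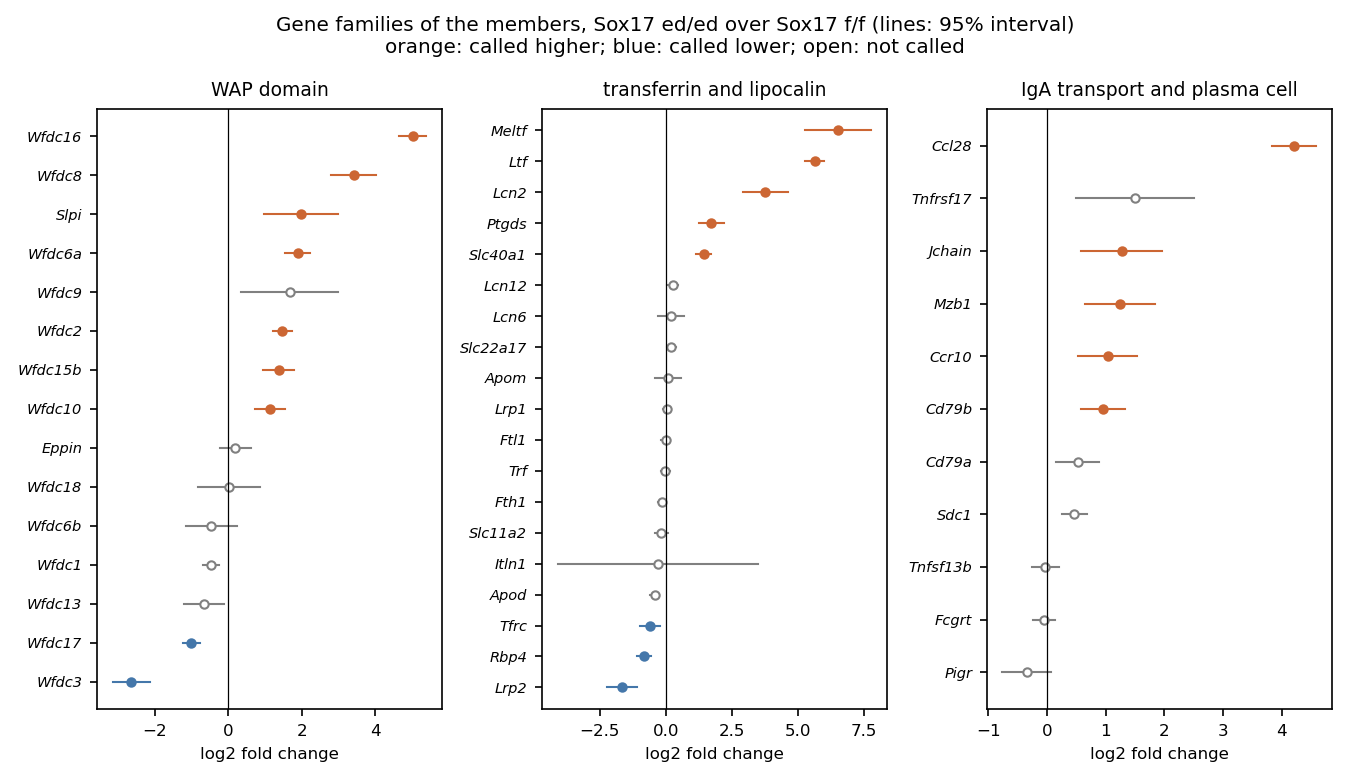
Log2 fold change of *Sox17* ed/ed over *Sox17* f/f uteri for the tested genes of the WAP, transferrin and lipocalin, and IgA lists, with 95% confidence intervals from limma and a separate horizontal scale for each list. Orange points were called higher, blue points lower and open points were not called; the members *Slpi*, *Wfdc2*, *Ltf* and *Lcn2* are among the 12 genes called higher in the left and middle lists, and *Pigr* (brighter probe) is at the foot of the IgA list.

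The complement members differed from each other. *Cfb*, the factor B gene, lay at 10.42, 10.46 and 10.42 in *Sox17* f/f and at 12.11, 11.85 and 12.00 in *Sox17* ed/ed uteri. The controls spanned no more than 1.03-fold, the tightest group of any member, and the groups stood 1.39 apart. *Cfb* rose by 1.55 (SE 0.08, adjusted p = 0.00011), or 2.94-fold.

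*C3*, the central complement component, was printed as 10 spots of 1 probe, whose mean lay at 14.57, 14.56 and 13.99 in *Sox17* f/f and at 13.78, 14.05 and 14.19 in *Sox17* ed/ed uteri. The third control fell among the *Sox17* ed/ed values, so the groups overlapped. The difference was -0.37 (SE 0.19, adjusted p = 0.23) with a 95% confidence interval of -0.83 to 0.09, which includes no change but no rise of the size seen for *Cfb*. The other *C3* probe differed by -0.26 (SE 0.20, adjusted p = 0.42 over all probes). Without *Sox17* f/f replicate 3 the difference of the 10-spot probe was -0.56 and passed the thresholds (adjusted p = 0.041), so that single control decided whether *C3* was called lower.

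Around *Cfb* and *C3*, 48 complement genes were listed by role, 37 of them were tested, and 6 rose, 3 fell and 28 did not pass (median log2 fold change 0.05, 24.3% called). In the classical pathway, *C2*, whose product is the counterpart of factor B and whose gene lies beside *Cfb*, rose from 10.64, 10.78 and 10.93 to 11.70, 11.77 and 11.88, by 1.002 (SE 0.10, adjusted p = 0.0012). *C4b*, whose product is cleaved to form the classical C3 convertase with C2, fell by 1.54 (SE 0.17, adjusted p = 0.0020), with the reservation that the array may not separate it from its near-identical copy *C4a*. The genes for the recognition proteins and proteases of C1, *C1qa*, *C1qb*, *C1qc*, *C1ra* and *C1s1*, lay between -0.27 and -0.16 and none was called.

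In the alternative pathway 1 of 4 genes was called, *Cfb* itself. *Cfd*, the protease that activates factor B, lay at 5.23, 4.05 and 5.40 in *Sox17* f/f and at 5.71, 5.11 and 7.10 in *Sox17* ed/ed uteri and was too variable to call (1.08, SE 0.59, adjusted p = 0.25). *Cfp*, the properdin gene, differed by -0.28 (SE 0.07, adjusted p = 0.035), under the fold threshold. Of 7 lectin pathway and 7 terminal pathway genes, 3 and 2 were tested, and limma called 0 of either (0 and 1 had an unadjusted p under 0.05).

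Regulators of complement were called most often, 5 of 13 tested, in both directions. *Clu*, whose secreted product clusterin blocks assembly of the terminal complex, lay at 13.59, 13.68 and 13.40 in *Sox17* f/f and at 15.66, 15.69 and 15.65 in *Sox17* ed/ed uteri, and rose by 2.11 (SE 0.09, adjusted p = 3.91e-05). *Cfi*, the protease that inactivates C3b and C4b, rose by 1.21 (SE 0.09, adjusted p = 0.00041). *Serping1*, the C1 inhibitor gene, fell by 0.55 (SE 0.06, adjusted p = 0.0026), and *C4bp*, a cofactor for the breakdown of C4b, fell by 0.80 (SE 0.21, adjusted p = 0.045). *C4bp* was dim, and well above background on 2 of 3 *Sox17* ed/ed arrays. Its call was lost under several alternatives, among them normexp background correction (-0.33), no filter on low signal and the replicate number as a block. Every fit that left out 1 array lost it too, except that without *Sox17* f/f replicate 3.

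Of 8 complement receptor genes tested, 1 was called. *Cr2*, whose product binds C3d on B cells, rose by 0.60 (SE 0.14, adjusted p = 0.029) on its brighter probe, a call lost under several alternatives, while its other probe differed by -0.63 (SE 0.26, adjusted p = 0.16 over all probes). The receptor for C3a, *C3ar1*, differed by 0.05 (SE 0.17, adjusted p = 0.88). *Itgam* and *Itgb2*, which together form the leukocyte receptor for inactivated C3b, differed by 0.22 and 0.24 (SE 0.12 and 0.06, adjusted p = 0.25 and 0.035) and were not called.

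**Figure D3:**
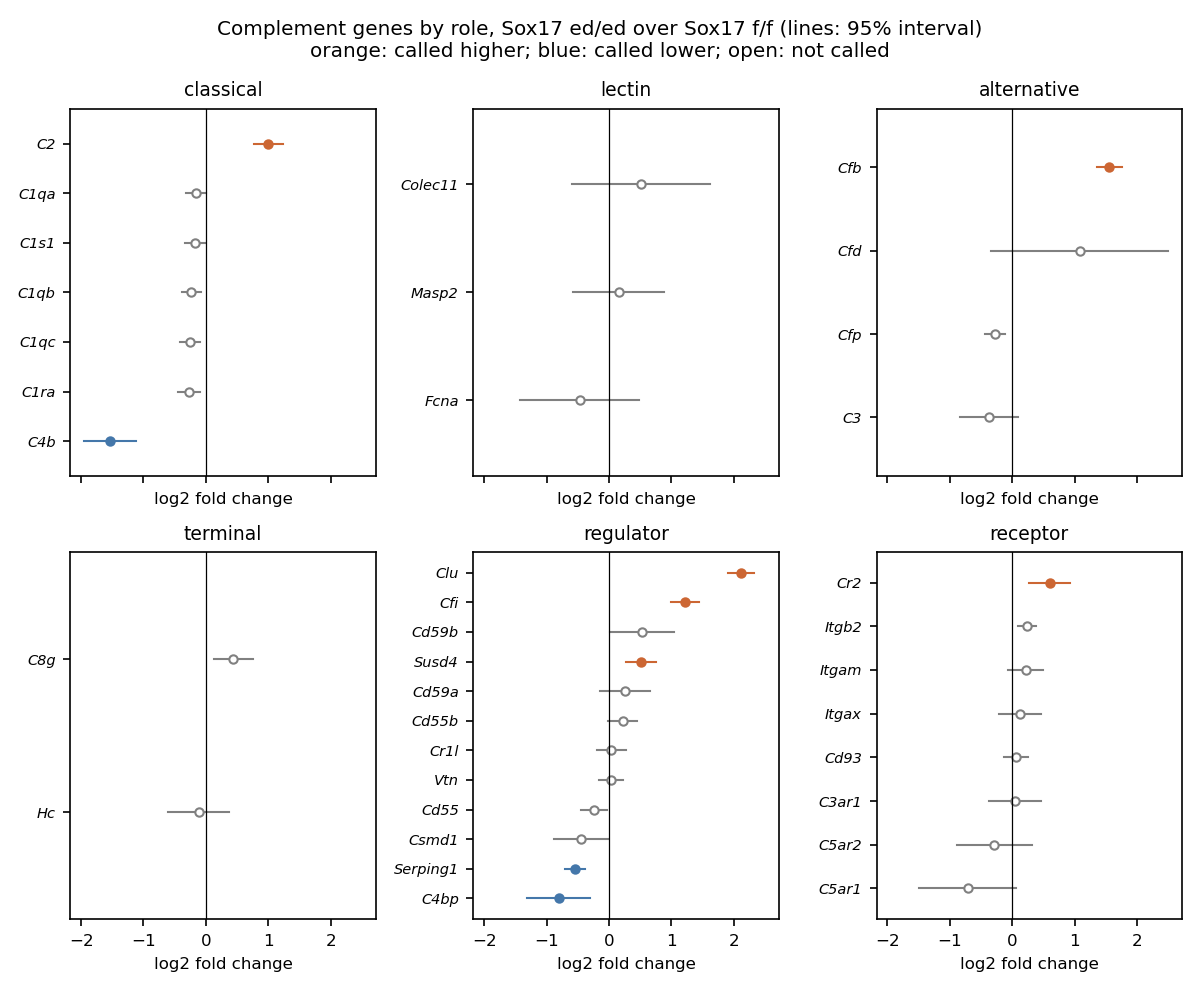
Log2 fold change of *Sox17* ed/ed over *Sox17* f/f uteri for the tested complement genes, all but 1 of them drawn, grouped by role, with 95% confidence intervals from limma on one common scale. Orange points were called higher, blue points lower and open points were not called, with *Cfb*, *C2*, *Clu* and *Cfi* on the right, *C4b* on the left, and *C3* below 0 with an interval that crosses it.

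*Pigr* could not be given a single direction, because its probes disagreed. The brighter probe lay at 14.78, 14.39 and 14.12 in *Sox17* f/f and at 14.07, 13.99 and 14.18 in *Sox17* ed/ed uteri. These groups overlapped, and the difference was -0.35 (SE 0.17, adjusted p = 0.21, 95% confidence interval -0.76 to 0.06). The dimmer probe lay at 6.75, 6.86 and 6.93 in *Sox17* f/f and at 9.52, 9.43 and 9.43 in *Sox17* ed/ed uteri.

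On the dimmer probe all 3 *Sox17* ed/ed arrays were thus above all 3 controls, by 2.49 at the nearest, and the change was 2.61 (SE 0.08, adjusted p = 1.36e-05 over all probes), or 6.11-fold. Both probes were well above background on all 6 arrays and carry accessions that the gene table assigns to *Pigr*, while the part of the transcript that each one reads is not given in the sources used here. A gap of this size, 2.96 on the log2 scale, was seen for 5 of 3899 genes with more than 1 tested probe, *Pigr* among them, against a median gap of 0.13. For the other members with more than 1 tested probe, *C3* and *Wfdc2*, the probes differed by 0.11 and 0.13. Since the brightest probe stood for each gene, *Pigr* is counted above as not called, and its expression is described here as undecided.

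The partners of the receptor in IgA transport were called in one direction. Of 12 genes for IgA transport and plasma cells 11 were tested, and 5 rose, 0 fell and 6, *Pigr* among them, did not pass (median log2 fold change 0.96). *Ccl28*, the epithelial chemokine that draws IgA plasma cells, lay at 5.08, 5.57 and 5.02 in *Sox17* f/f and at 9.44, 9.33 and 9.52 in *Sox17* ed/ed uteri, and rose by 4.21 (SE 0.16, adjusted p = 2.98e-05), or 18.5-fold. Its receptor gene *Ccr10* rose by 1.03 (SE 0.21, adjusted p = 0.019). *Jchain*, the joining chain of the dimeric IgA that the PIGR protein binds, lay at 12.03, 12.41 and 13.19 in *Sox17* f/f and at 13.70, 13.82 and 13.94 in *Sox17* ed/ed uteri.

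*Jchain* rose by 1.27 (SE 0.29, adjusted p = 0.028), with *Sox17* f/f replicate 3 closest to the *Sox17* ed/ed arrays, and *Mzb1*, a plasma cell gene, rose by 1.25 (SE 0.25, adjusted p = 0.018). Either call is lost when some single arrays are left out, namely *Jchain* without *Sox17* f/f replicate 2 or any 1 *Sox17* ed/ed array, and *Mzb1* without *Sox17* ed/ed replicate 3. The plasma cell markers share *Jchain*, *Mzb1*, *Tnfrsf17* and *Sdc1* with this list, so they are not separate evidence of its direction. Of these markers 3 of 6 rose (*Jchain*, *Mzb1* and *Irf4*) and 0 fell. Their summed level, to which *Jchain* gave the largest part, was 12.91 to 13.68 in *Sox17* f/f and 14.17 to 14.36 in *Sox17* ed/ed uteri. The part of plasma cells in the result was not tested.

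*Defb1* was not measurable. Its single probe was well above background on none of the 6 arrays, so no level and no fold change can be given, and it was not tested. Of 46 beta-defensin genes 45 were on the array and 4 were tested. *Defb6* rose by 2.15 (SE 0.57, adjusted p = 0.047) and was well above background on 1 of 3 *Sox17* f/f arrays and on all 3 *Sox17* ed/ed arrays. *Defb28* fell by 0.78 (SE 0.21, adjusted p = 0.047). Neither beta-defensin call held under the other scalings, so no direction is given for the family.

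Among 37 other antimicrobial genes 17 were tested, and 2 rose, 3 fell and 12 did not pass (median log2 fold change 0.18). *Pglyrp1*, which binds bacterial peptidoglycan, rose from 9.54, 9.27 and 9.37 to between 10.90 and 11.03, by 1.59 (SE 0.09, adjusted p = 0.00015). *Lyz1* rose by 0.77 (SE 0.09, adjusted p = 0.0022), with the reservation that *Lyz2* is a close copy. *Lbp*, which encodes a lipopolysaccharide-binding protein, fell by 1.45 (SE 0.14, adjusted p = 0.0013) and *Cd14*, which encodes a lipopolysaccharide co-receptor, fell by 1.15 (SE 0.12, adjusted p = 0.0016). *Bpifb1*, a relative of bactericidal permeability-increasing protein, fell by 2.47 (SE 0.35, adjusted p = 0.0053).

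Inflammatory regulators, among them known inducers of *Lcn2* and *C3*, were called in one direction, apart from *Cebpe* (0.68) and *Elf3* (0.54), which rose under some alternatives, with these values under normexp background correction. Of 33 listed genes 26 were tested, and 0 rose, 9 fell and 17 did not pass (median log2 fold change -0.28). *Il6*, a cytokine that acts through STAT3, lay at 6.56, 6.65 and 6.96 in *Sox17* f/f uteri. No *Sox17* ed/ed array had it well above background, and it was at least 6.598-fold lower there (adjusted p = 4.77e-05). *Il1b* fell by 2.60 (SE 0.13, adjusted p = 7.88e-05), and *Spdef*, an epithelial ETS factor, fell by 2.26 (SE 0.19, adjusted p = 0.00056).

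Other genes known to respond to estrogen in the uterus were listed as well. Of 20 listed genes 18 were tested, and 14 rose, 0 fell and 4 did not pass (median log2 fold change 1.69). The study had already named *Greb1*, *Clca1* (as *Clca3*), *Fzd10*, *Igfbp5*, *Wnt4*, *Muc1* and *Sprr2f* from these same arrays, so this count is not independent evidence of the direction of the list. The study named the member *Ltf* among its estrogen-responsive genes too, so the rise of *Ltf* on these arrays is likewise not independent of that report. By quantitative real-time PCR, a separate assay, the study also reported higher *Ltf* and *Greb1* mRNA in *Sox17* ed/ed uteri. In that assay *Lif* was lower and *Lifr* did not differ. *Clca1* rose by 10.94 (SE 0.42, adjusted p = 3.31e-05) and was well above background on 1 of 3 *Sox17* f/f arrays. *Sprr2f*, a small proline-rich protein gene, rose by 5.97 (SE 0.18, adjusted p = 1.46e-05), and *Prap1* rose by 5.83 (SE 0.40, adjusted p = 0.00029). The 5 steroid receptor genes tested were not called, with *Esr1* at -0.04 (SE 0.07, adjusted p = 0.74) and *Pgr* at 0.01 (SE 0.06, adjusted p = 0.95). *Gper1*, the highest of the 5 at 0.72, was called higher with normexp background correction (0.63) and without *Sox17* f/f replicate 3 (1.04). These values are RNA of whole uterus, whereas the study's tissue staining showed more ESR1 and less PGR protein in *Sox17* ed/ed uteri. *Inhbb*, *Padi4*, *Cdkn1a* and *Sprr2g* were the estrogen-responsive genes that did not pass, as was the case for the member *C3*.

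Several member proteins are also stored by neutrophils, which carry lactotransferrin and lipocalin 2 in their granules. Of 14 neutrophil marker genes 9 were tested and limma called 0 in either direction (0 with an unadjusted p under 0.05), and their summed level overlapped, at 15.43 to 15.62 in *Sox17* f/f and 15.52 to 15.59 in *Sox17* ed/ed uteri. The granule genes *Camp*, *Elane* and *Mpo* differed by 0.18, -0.16 and -0.35 (SE 0.21, 0.15 and 0.15). *S100a8* and *S100a9* differed by -0.41 and -0.46 (SE 0.34 and 0.35), also without a call. The highest value of the list was that of *Retnlg*, at 0.97 (SE 0.43, adjusted p = 0.18), which was called higher, at 1.44, when *Sox17* ed/ed replicate 1 was left out.

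All 12 epithelial, 10 stromal and 7 smooth muscle markers were bright enough to be tested, as were 3 of 6 ovary and oviduct markers. Passing this filter does not by itself identify the tissue. Epithelial markers moved in both directions, with 5 called higher, 3 lower and 4 not called, and their summed level overlapped at 15.90 to 16.00 in *Sox17* f/f and 15.88 to 16.16 in *Sox17* ed/ed uteri. *Krt19* rose by 2.10 (SE 0.13), while *Cldn3* fell by 1.16 (SE 0.08). *Ehf* rose by 1.47 (SE 0.07), *Cldn7* fell by 0.71 (SE 0.12) and *Prom1* fell by 0.57 (SE 0.15), the last a call that several alternatives removed. *Krt8*, among the 5 called higher (0.69), also lost its call under several alternatives, among them the fits without any 1 *Sox17* f/f array. Summed levels were lower in *Sox17* ed/ed uteri for smooth muscle, at 18.92 to 19.06 against 18.49 to 18.76, and for endothelium, at 13.82 to 14.10 against 13.31 to 13.49. In these lists 1 gene each was called, and *Actg2* fell by 0.64 (SE 0.10) and *Vwf* fell by 0.84 (SE 0.16). Macrophage markers summed to 14.39 to 14.42 and 14.49 to 14.56, with 0 called higher and 1, *Mrc1*, lower. Such sums follow the brightest markers of a list, and the median log2 fold change of the tested macrophage markers was -0.11. The summed stromal level was 18.29 to 18.31 in *Sox17* f/f and 18.12 to 18.23 in *Sox17* ed/ed uteri, with 0 of 10 called by limma (5 at an unadjusted p under 0.05).

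Markers of stratified squamous epithelium, a tissue in which *Slpi*, *Lcn2* and *Wfdc2* are also known to be made, gave a divided picture. Of 9 markers 5 were tested, and 1, *Krt5*, rose, by at least 5.25-fold (adjusted p = 0.044). The *Krt5* call was lost with the shift by the 75th percentile, with no filter on low signal, with normexp background correction (0.99 on the log2 scale), with the replicate number as a block, and without any 1 of the *Sox17* f/f arrays. Dimmer probes of *Trp63* and *Krt13* were well above background in *Sox17* ed/ed uteri alone, at least 18.1-fold and 3.32-fold higher there. The brighter probes of both were not called. By quantitative real-time PCR the study reported higher *Trp63* mRNA in *Sox17* ed/ed than in *Sox17* f/f uteri, the direction of the dimmer probe. Its staining found TRP63-positive cells only sporadically in the epithelium of the younger *Sox17* ed/ed mice. The summed level over the brightest probes overlapped, at 11.46 to 11.72 and 11.55 to 11.64. This sum mostly follows the brighter *Trp63* probe, at 11.24 to 11.51 in *Sox17* f/f and 11.16 to 11.39 in *Sox17* ed/ed uteri. Its overlap therefore says little about the other markers. *Ovgp1*, the oviduct glycoprotein gene, fell by 2.92 (SE 0.22, adjusted p = 0.00042), which left the summed ovary and oviduct level at 10.68 to 11.39 in *Sox17* f/f and 9.07 to 9.43 in *Sox17* ed/ed uteri. Adipocyte markers overlapped at 8.34 to 8.85 and 8.09 to 8.66, with 0 of 4 called by limma (2 at an unadjusted p under 0.05). The part of these cell types in the changes of the member genes was not tested.

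**Figure D4:**
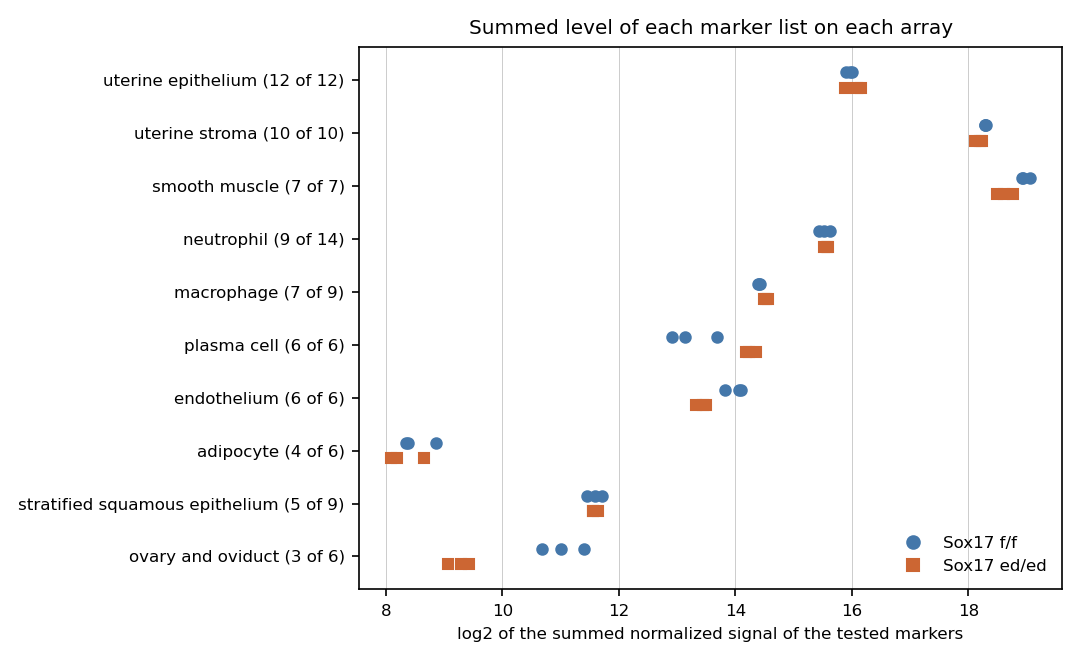
Summed normalized signal of each marker list on each array, as log2 of the sum over the tested markers, with *Sox17* f/f as blue circles and *Sox17* ed/ed as orange squares. The numbers beside each list give how many of its markers were tested. Plasma cell and macrophage sums are higher in *Sox17* ed/ed uteri, stroma, smooth muscle, endothelium and ovary and oviduct sums are lower, and the others overlap. Each sum follows the brightest markers of its list, and the median log2 fold change of the macrophage markers was -0.11.

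The genes whose profile over the 6 arrays was most like that of each member were found by the root mean square difference between gene-centred log2 values, a measure that includes the difference between the groups. *Nhlrc4* (0.22), *Sprr2f* (0.23) and *Spink8* (0.26) were nearest to *Ltf*, and *Mab21l4* (0.16), *Cldn2* (0.25) and *Abcb5* (0.27) to *Lcn2*. For *Slpi* the nearest genes were *B3galt5* (0.28), *Dlx6os1* (0.31) and *Fut9* (0.32), a looser fit than for any other member. *Cfb* had *Tmem54* (0.03), *Arhgef16* (0.05) and *Mapk13* (0.07), and *Wfdc2* had *Arhgef16* (0.06), *Inava* (0.08) and *Cfb* itself (0.08), so *Cfb* and *Wfdc2* were each near the same gene. *C3* had *4930555G01Rik* (0.07), *Sctr* (0.07) and *Cog5* (0.07), and the brighter probe of *Pigr* had *Cyp21a1* (0.05), *Mirt1* (0.07) and *Cdh10* (0.07). The 3 genes nearest to *C3* and the 3 nearest to *Pigr* were not called, and those nearest to the other members were all called higher. These likenesses describe 6 arrays of 2 groups.

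**Figure D5:**
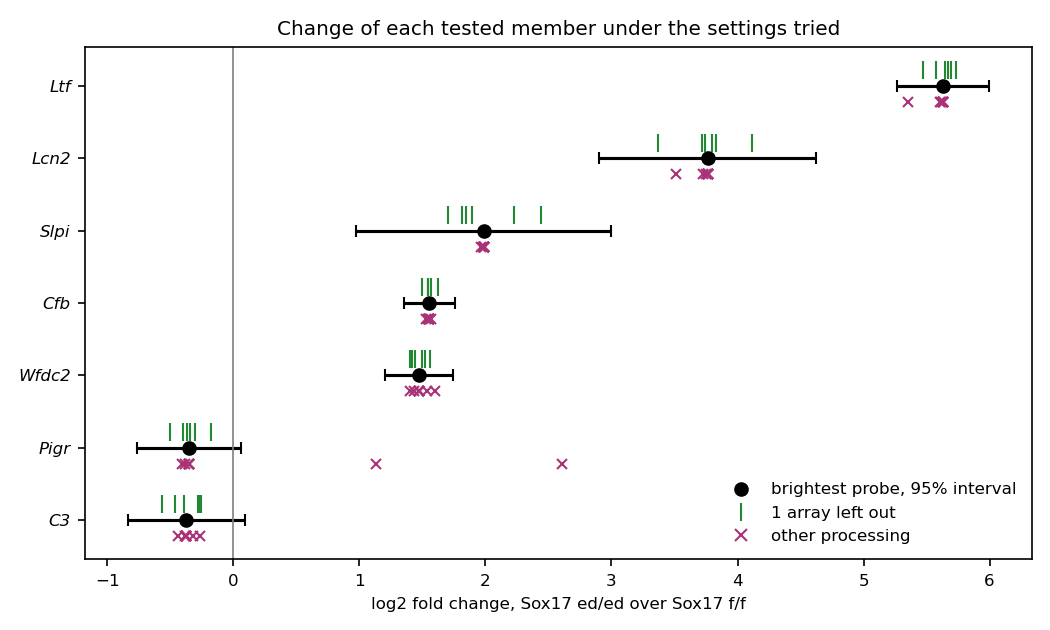
Log2 fold change of each tested member, *Sox17* ed/ed over *Sox17* f/f. Black points with bars give the brightest probe with its 95% confidence interval, green ticks leave out 1 array each, and purple crosses are other ways of processing. The 5 members called higher stay above 0 throughout, *C3* stays below 0, and the crosses of *Pigr* at 1.13 (mean of its probes) and 2.61 (dimmer probe) lie far from the rest.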

How the data were processed

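Whole-uterus RNA was measured on 6 one-colour arrays, 3 for each genotype, and samples were grouped by the genotype in the labels, 1 sample an array. Nothing in the labels beyond that says how the replicates were taken, so p-values measure the spread between these samples. The authors deposited scanner output with spot intensities from Feature Extraction (11.0.1.1 per the file headers, 9.1 in the submitters' processing notes), background-subtracted and detrended within each array but not normalized between arrays. The values of the deposited series table are the same intensities (largest median gap over arrays 0.0008%) and served as an alternative. The study's methods give quantile normalization and the thresholds, and name no test.

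Log2 processed signals were quantile normalized, spots of a probe averaged, and control spots and 169 to 302 outlier spots per array left out. A probe was kept when at least 3 of the 6 arrays had it well above background, and the probe with the highest mean stood for a gene; genes without a value on an array were left out. By RefSeq accession, 26582 of 55681 probes were named. limma 3.58.1 in R 4.3.3 was fitted to all genes, with no covariate and Benjamini-Hochberg adjustment; adjusted p of a second probe come from the same fit over all probes. Python 3.11.15, pandas 2.3.3, numpy 2.4.6 and matplotlib 3.10.9 were used for counts and plots. On simulated data for this comparison (14790 genes), 97 of 100 genes changed by 1 and 98 of 100 changed by 2 on the log2 scale were recovered, with 61 unchanged genes called. The number of arrays limits the precision.

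Named were all members, the 3 highest and 3 lowest called genes of each list whose groups did not overlap, members' receptors, *Ltf* neighbours, the 3 nearest profiles of each member, and the complement genes by role; other named genes were chosen after their values were seen. A few genes that this rule names are not reported here. The members and lists were chosen with earlier results of these data known. Alternatives were other scalings, background corrections, filters, probe rules, variance models, thresholds, the replicate number as a block and leaving out arrays. The normexp alternative used median spot signals, since the files hold no mean signal. Replicate numbers did not pair the samples.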

Additional observations from a re-analysis of the deposited data

How the results depend on the processing

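Of 105 values of the 7 tested members under alternatives, 99 kept their direction and their side of the thresholds. *Ltf* stayed between 5.35 and 5.73, *Lcn2* between 3.37 and 4.12, *Cfb* between 1.49 and 1.62 and *Wfdc2* between 1.399 and 1.60. *Pigr* turned direction, to 1.13 with the mean of its probes and to 2.61 with its dimmer probe, the latter an alternative chosen after seeing the data; the probes themselves differ. *C3* ran from -0.56 to -0.26 when 1 array was left out and passed the thresholds without *Sox17* f/f replicate 3 (-0.56), which made 1 member called lower in place of 0. *Slpi* ran from 1.70 to 2.44 and lost its call in 3 of these 6 fits (1.82, 1.85 and 1.89); the cause was not tested. *Pigr* ran from -0.50 to -0.17, *Ltf* from 5.47 to 5.73 and *Wfdc2* from 1.399 to 1.56 in the same fits, and members called higher numbered 4 to 5. Over all genes, 1850 calls became 814 at a fold change of at least 2 and 2805 at an adjusted p under 0.05 with no fold threshold, and 1581 to 1938 when 1 array was left out. With the replicate number as a block, 1795 genes and 5 members were called higher or lower, and no member's call changed; same-numbered arrays deviated together by 0.06, -0.11 and 0.00 (correlation), so the numbers gave no pairing. The slide as a block was not run, since the arrays share 1 slide. Across the settings, also run for the lists after seeing the data, 4 to 6 complement genes were higher and 2 to 5 lower, 4 to 8 WAP genes higher and 2 to 4 lower, 3 to 7 IgA and plasma cell genes higher, and 11 to 14 estrogen-responsive genes higher. *Defb1* is below what these arrays can measure.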
